A study of Homo sapiens with 3 samples.

Results

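The genes described here carry names made of GPR and a number, the placeholder given to predicted G protein-coupled receptors when their ligand was unknown. Members were the probe sets whose listed gene symbol was exactly GPR followed by digits: 97 probe sets for 55 genes, out of 19775 genes on the array. Genes with a letter after the number were not members, nor were 5 probe sets listed with a GPR-named gene and another gene together. All 55 symbols matched the RefSeq gene table by Entrez ID with the symbol unchanged.

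The cells were THP-1, a long-established line from a human monocytic leukemia. Phorbol myristate acetate (PMA), which activates protein kinase C, makes them stick and take on features of macrophages. In all, 3 groups of 1 culture and 1 array each were measured: untreated cells (undifferentiated) and a pair of PMA cultures named by their labelled length, PMA 3 days and PMA 8 days. Both PMA cultures started in 200 nM PMA. The PMA 3 days culture was moved to PMA-free medium after 24 h and kept for 3 days more. The PMA 8 days culture was moved after 72 h and kept for 5 days more, so that time in PMA and time since PMA differed together. All were grown with 10% serum, and a change to 2% serum came 16 h before RNA was taken, without a statement in the labels on whether this included the undifferentiated cells. All results are from this 1 line, with no replicate culture, so no test between conditions was possible.

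G protein-coupled receptors cross the cell membrane repeatedly and pass a signal from an outside ligand to G proteins, which then act on adenylyl cyclases, phospholipases and small GTPases. Macrophages use them to sense acid, lipids, oxysterols, fatty acids and chemoattractants. The word orphan fits only part of the list: GPR183 has an oxysterol ligand, GPR65, GPR4 and GPR132 belong to the acid-sensing group, GPR84 answers to medium-chain fatty acids, and several others (GPR107, GPR137, GPR155, GPR180) are membrane proteins that mainly act inside the cell or are not classical receptors.

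Values are MAS5 signals, a summary of a probe set's brightness on a linear scale. Signals under a floor of 149.8, the median of all values, were raised to it before ratios were taken, and a ratio with 1 array at the floor is a lower bound, written "at least". "Higher" and "lower" are used where that ratio reached 2-fold. The technical SD of log2 ratios, taken from the disagreement among probe sets of 5180 genes, was 0.43 (PMA 3 days) and 0.44 (PMA 8 days) against undifferentiated cells. It was 0.27 between the PMA arrays. It covers no difference between cultures. The arrays had equal trimmed means, which scaling to a common target gives, so this does not show that they are alike. Log2 signals of the poly-A controls over undifferentiated had medians of 0.29 (PMA 3 days) and -0.02 (PMA 8 days). Between 48.5% and 51.4% of probe sets lay above the floor. Of 8 monocyte-lineage markers that could be looked up, 7 were above the floor in undifferentiated cells and 8 on each PMA array, the exception being SPI1. Of 28 markers of lymphoid, erythroid, epithelial, stromal and endothelial cells, 7 were above the floor in undifferentiated cells (summed signal 4252) and 10 on each PMA array (summed signal 7258 and 9202). The T cell receptor genes CD3D, CD3E and CD3G and the endothelial CDH5 were below it on every array. Others were above it on every array, among them the B cell markers CD79A (492, 348 and 425) and PAX5 (504, 360 and 434). So were the erythroid HBB (382, 425 and 442) and the epithelial KRT18 (338, 330 and 296). The B cell marker MS4A1 was below the floor on every array, and the T cell marker CD2 was above it only at PMA 3 days (157). GNLY (138, 1296 and 3359), COL1A1 (464, 2337 and 1828) and PDGFRA (8.48, 923 and 961), markers of natural killer cells and fibroblasts, were higher with PMA. Other markers of these cells were not: KLRF1 had 535, 240 and 290, COL1A2 went from 157 to below the floor, and NCR1, KLRD1 and LUM were below it throughout. The part of such markers in the results was not tested.

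The promoter windows of 5 of the genes that differed by at least 2-fold are shown first, from the RefSeq table (GRCh38.p14). They were chosen after the values were seen: GPR160 and GPR18 had the lowest ratios with PMA, GPR65 and GPR82 the highest, and GPR183 is the chromosomal neighbour of GPR18. Each window runs from 250 bases before to 50 bases after the annotated start, 5′ to 3′ on the gene's strand. Capitals mark matches, on either strand, to 4 short motifs: TGANTCA (AP-1), AGGAAG (PU.1), TAACNG (MYB) and TATAAA (the TATA box). Matches may overlap.
GPR160, chr3:170037745-170038044, plus strand: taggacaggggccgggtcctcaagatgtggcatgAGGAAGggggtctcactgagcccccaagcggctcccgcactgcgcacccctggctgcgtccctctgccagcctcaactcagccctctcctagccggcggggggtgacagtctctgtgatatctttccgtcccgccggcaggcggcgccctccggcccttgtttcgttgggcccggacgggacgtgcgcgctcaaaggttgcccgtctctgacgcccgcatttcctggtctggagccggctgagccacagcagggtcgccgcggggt
GPR18, chr13:99258330-99258629, minus strand: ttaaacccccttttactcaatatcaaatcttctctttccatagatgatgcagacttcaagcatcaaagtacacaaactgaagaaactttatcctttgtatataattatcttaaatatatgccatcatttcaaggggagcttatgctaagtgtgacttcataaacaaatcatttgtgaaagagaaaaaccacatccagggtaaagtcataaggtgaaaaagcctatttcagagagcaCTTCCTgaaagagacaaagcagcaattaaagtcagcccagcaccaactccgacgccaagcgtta
GPR183, chr13:99307350-99307649, minus strand: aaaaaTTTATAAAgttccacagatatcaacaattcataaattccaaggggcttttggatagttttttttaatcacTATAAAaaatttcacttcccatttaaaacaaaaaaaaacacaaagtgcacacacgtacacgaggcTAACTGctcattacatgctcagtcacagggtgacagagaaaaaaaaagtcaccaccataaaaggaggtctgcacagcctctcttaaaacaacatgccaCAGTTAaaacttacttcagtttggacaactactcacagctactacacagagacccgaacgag
GPR65, chr14:88004885-88005184, plus strand: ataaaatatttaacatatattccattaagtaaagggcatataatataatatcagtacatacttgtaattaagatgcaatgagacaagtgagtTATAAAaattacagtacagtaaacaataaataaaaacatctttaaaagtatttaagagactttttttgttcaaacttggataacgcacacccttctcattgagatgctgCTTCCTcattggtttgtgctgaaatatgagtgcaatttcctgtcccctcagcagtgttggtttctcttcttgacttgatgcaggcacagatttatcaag
GPR82, chrX:41723931-41724230, plus strand: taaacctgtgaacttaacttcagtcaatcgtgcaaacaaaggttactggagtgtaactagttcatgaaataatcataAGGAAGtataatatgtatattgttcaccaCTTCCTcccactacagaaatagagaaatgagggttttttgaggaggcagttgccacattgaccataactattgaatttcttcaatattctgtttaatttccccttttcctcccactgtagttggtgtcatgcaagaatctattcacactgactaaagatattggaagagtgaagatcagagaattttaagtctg

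The window of GPR160 was 68.7% G and C with 26 CG pairs. Those of GPR18, GPR183, GPR65 and GPR82 were between 31.7% and 37.0% G and C, with 3, 4, 1 and 1 CG pairs, against a median of 58.7% over 34796 windows of the table. The AP-1 letters were in none of the 5, and are in 7.73% of all windows. They matched at 1 place in a window of GPR176, a gene higher with PMA whose windows are not shown. The PU.1 letters were in GPR160, GPR18 and GPR65 once and in GPR82 at 2 places (33.7% of all windows). MYB letters occurred at 2 places in GPR183 and not in the other 4 (20.8% of all windows). The TATA letters matched at 3 places in GPR183, where 1 on either strand overlap, and at 1 in GPR65 (11.6% of all windows). These are matches of letters and show no binding. Of the 15 genes that were higher or lower in any comparison, 12 had a window in the table; GPR34, GPR84 and GPR155 did not.

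Of the 55 genes, 35 were above the floor on at least 1 array and 19 on all 3, which is 63.6% and 34.5% of them, against 69.7% and 56.3% of all genes. By array, 26 were above it in undifferentiated cells, 23 at PMA 3 days and 30 at PMA 8 days. The 20 genes below the floor on every array were GPR3, GPR17, GPR22, GPR25, GPR26, GPR31, GPR37, GPR39, GPR45, GPR50, GPR52, GPR61, GPR62, GPR75, GPR83, GPR101, GPR135, GPR143, GPR171 and GPR174. Many of them are known from brain or lymphocytes. No signal among them exceeded 122 (GPR101 at PMA 3 days), and nothing is said about their change. Signals of different genes come from different probes and were not ranked against each other.

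At PMA 3 days over undifferentiated, 29 of the 55 genes could be compared; 9 were higher (GPR34, GPR65, GPR82, GPR84, GPR85, GPR107, GPR157, GPR176, GPR183) and 4 lower (GPR6, GPR18, GPR63, GPR160). That is 31.0% and 13.8% of those compared, beside 10.3% higher and 10.7% lower (21.0% either way) among all 13319 genes compared. At PMA 8 days over undifferentiated, 34 could be compared; 8 were higher (GPR34, GPR65, GPR82, GPR84, GPR107, GPR155, GPR176, GPR183) and 4 lower (GPR18, GPR63, GPR137, GPR160). These are 23.5% and 11.8%, beside 9.72% higher and 8.39% lower (18.1% either way) among all 13582 genes. Both comparisons use the same undifferentiated array. Genes enter through the array where they are bright, so these shares describe the genes that passed and not the 55. Median log2 ratios of the compared members were 0.02 and 0.18, beside -0.12 and -0.07 for all genes; the first was -0.26 when arrays were scaled to poly-A controls, which also moved the median of all genes from -0.12 to -0.38 and the shares of all genes higher and lower at PMA 3 days to 7.53% and 18.0%.

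**Figure D1:**
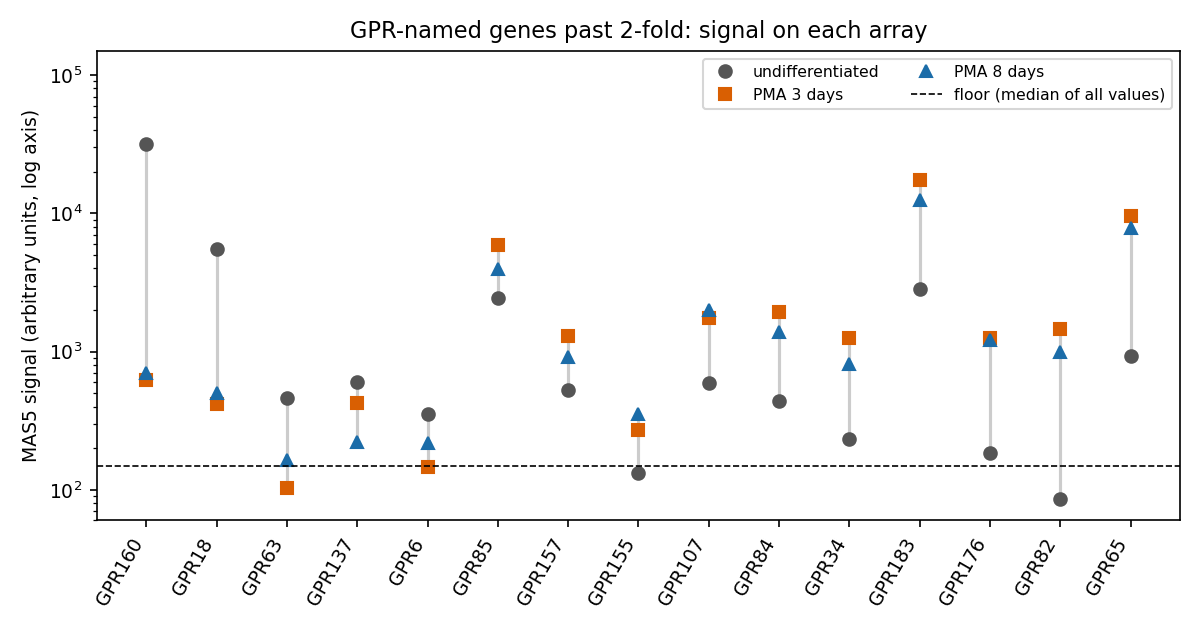
MAS5 signal (log axis) of the 15 GPR-named genes that were higher or lower in at least 1 comparison, 1 point per array, in order of their mean log2 ratio; the dashed line is the floor of 149.8. GPR160 went from 31866 to 622 and 698 with PMA and GPR65 from 933 to 9532 and 7839; a point under the line has no measured level.

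GPR160, an orphan placed here with the leukocyte receptors, had the furthest change of the list. Its signal was 31866 in undifferentiated cells, 622 at PMA 3 days and 698 at PMA 8 days. Only the undifferentiated array was high, and both PMA arrays stayed above the floor, so the fall was measured on both sides. The log2 ratios were -5.68 ± 0.43 (technical SD) and -5.51 ± 0.44, that is 51.3-fold and 45.6-fold lower, ranks 3 and 4 from the bottom of all genes compared. These cultures are bulk RNA, in which fewer cells with a transcript and less transcript per cell cannot be told apart. GPR160 has 1 probe set, and no second probe set could be set beside it.

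GPR18, a leukocyte receptor for which lipid ligands have been proposed, was lower as well. The signals were 5551 before PMA, then 414 (PMA 3 days) and 500 (PMA 8 days), a single high array and a pair of low ones. Its log2 ratios of -3.74 and -3.47 (13.4-fold and 11.1-fold lower) were rank 31 from the bottom of all genes in either comparison. GPR63, an orphan known from brain, fell from 464 to under the floor (104) at PMA 3 days and to 165 at PMA 8 days. Its changes, at least 3.10-fold and 2.80-fold lower, end close to the floor, and the log2 ratio was -0.83 in both comparisons with a floor at the 60th percentile of all values. GPR6, a receptor that raises cyclic AMP without a known ligand, had signals of 353, 147 and 217. It was at least 2.36-fold lower at PMA 3 days and 1.63-fold below undifferentiated at PMA 8 days, and the former was -0.44 on the log2 scale with the higher floor. Of its group of 3 constitutively active receptors, GPR3 was below the floor, and the probe sets of GPR12 disagreed near it: the brightest was above it at PMA 8 days alone (183), the other in undifferentiated cells alone (179).

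GPR65 belongs to the acid-sensing receptors, which are switched on by protons; it is a receptor of lymphocytes and macrophages. Its signal was 933 in undifferentiated cells, 9532 at PMA 3 days and 7839 at PMA 8 days. Both PMA arrays were far above the undifferentiated one. The log2 ratios were 3.35 ± 0.43 (10.2-fold) and 3.07 ± 0.44 (8.40-fold), ranks 133 and 165 from the top of all genes. The other acid-sensing members did not go with it. GPR132 had signals of 366, 286 and 250, with log2 ratios of -0.35 and -0.55, and GPR4, mainly known from endothelium, had 222, 188 and 114, the last below the floor. No measured difference of GPR132 or GPR4 reached 2-fold, and those at PMA 3 days lay within the technical SD. At PMA 8 days GPR4 was at least 1.48-fold below undifferentiated, a lower bound, so whether it reached 2-fold is not known. With a floor at the 40th percentile that log2 ratio was -0.96. The group thus held 1 higher gene of 3.

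Receptors for lipids and small metabolites had 11 genes on the list, of which 7 could be compared at PMA 3 days (3 higher, 1 lower) and 8 at PMA 8 days (3 higher, 1 lower). Among all genes compared, 10.3% were higher and 10.7% lower at PMA 3 days, and 9.72% and 8.39% at PMA 8 days; with so few genes in a role group its counts are a description only. GPR183 is the oxysterol receptor that steers B cells, dendritic cells and macrophages within lymphoid tissue. It had signals of 2850, 17547 and 12470 in undifferentiated, PMA 3 days and PMA 8 days cells. It was 6.16-fold and 4.38-fold higher (log2 ratios 2.62 and 2.13). GPR34, a receptor for lysophosphatidylserine found on macrophages, microglia and mast cells, had 232, 1253 and 816. The undifferentiated signal lies near the floor, and the folds were 5.40 and 3.51. GPR84, which myeloid cells raise under inflammatory stimuli, had 441, 1919 and 1391, 4.35-fold and 3.16-fold higher. In all 3 genes both PMA arrays were above the undifferentiated one and the PMA 3 days array was the highest. GPR18 was the lower gene of this group.

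The lipid and metabolite group was listed from general knowledge, and not every member has an established ligand of that kind. Its other genes did not reach 2-fold where compared. The ratios of GPR55 at PMA 3 days and of GPR32 at PMA 8 days over undifferentiated were lower bounds. With a floor at the 40th percentile, the former was -1.07 on the log2 scale. GPR35 had signals of 248, 426 and 281, a log2 ratio of 0.78 at PMA 3 days and 0.18 at PMA 8 days. GPR20 had 316, 320 and 238, all ratios under 1.5-fold. GPR55, for which lysophosphatidylinositol is a ligand, had 198, 87.0 and 168, the middle one below the floor. GPR32 was above the floor only at PMA 8 days (160). GPR31, GPR39 and GPR174 were below it on all arrays.

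A further group was listed as other leukocyte receptors from general knowledge, and not every member is best known from leukocytes. In it GPR82, an orphan of unknown ligand, was below the floor in undifferentiated cells at 86.4 and had 1455 at PMA 3 days and 991 at PMA 8 days. It was thus at least 9.71-fold and at least 6.61-fold higher. Its 3 probe sets all rose, with log2 ratios between 2.28 and 3.28 at PMA 3 days and between 1.67 and 2.73 at PMA 8 days. GPR15, GPR141 and GPR162 were above the floor only at PMA 8 days, at 182, 165 and 171, and GPR146 only in undifferentiated cells, at 182. These 4 signals were close to the floor of 149.8, so they give no fold.

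GPR82 lies next to GPR34 on the X chromosome, and GPR18 next to GPR183 on chromosome 13, in the order of protein-coding genes of the RefSeq table. They are the 2 pairs of neighbours in the list. This was noticed after the values were seen. GPR34 and GPR82 were both higher with PMA, while GPR183 was higher and GPR18 lower. The table places the first pair within the span of CASK and the second within that of UBAC2. CASK, a scaffold kinase, had signals of 158, 169 and 191, and UBAC2, a membrane protein of the endoplasmic reticulum, 5104, 3644 and 3538. Neither spanning gene differed by 2-fold on any array pair, with log2 ratios of 0.10 and 0.27 for CASK, near the floor, and -0.49 and -0.53 for UBAC2.

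Members best known from brain, cilia or other tissues numbered 22, and 9 could be compared in each comparison with undifferentiated cells. GPR176, a receptor of the brain's circadian clock, had signals of 186, 1255 and 1222. It was 6.76-fold and 6.58-fold higher, level between the PMA arrays (log2 ratio -0.04). A second GPR176 probe set was above the floor only at PMA 8 days, with signals of 28.5, 130 and 253, so it bears on the size only there (log2 ratio of at least 0.76). GPR85, a brain receptor conserved among vertebrates, had 2434, 5858 and 3924. It was 2.41-fold higher at PMA 3 days and 1.61-fold above undifferentiated at PMA 8 days, and its other probe set gave 2.89-fold and 1.73-fold. Scaled to poly-A controls, the first log2 ratio was 0.97, just under 2-fold. GPR27, of the same small family, had 1087, 877 and 946, no ratio past 1.5-fold, and GPR173, the remaining member of that family, was above the floor only at PMA 3 days (169). GPR153 (488, 414, 421) and GPR161 (229, 229, 339), a receptor of the primary cilium, did not reach 2-fold. GPR19 (168) and GPR78 (192) were above the floor only in undifferentiated cells, and GPR21 (177) only at PMA 8 days. GPR158, a class C receptor of brain, had 232, 334 and 411, with log2 ratios of 0.53 and 0.83.

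**Figure D2:**
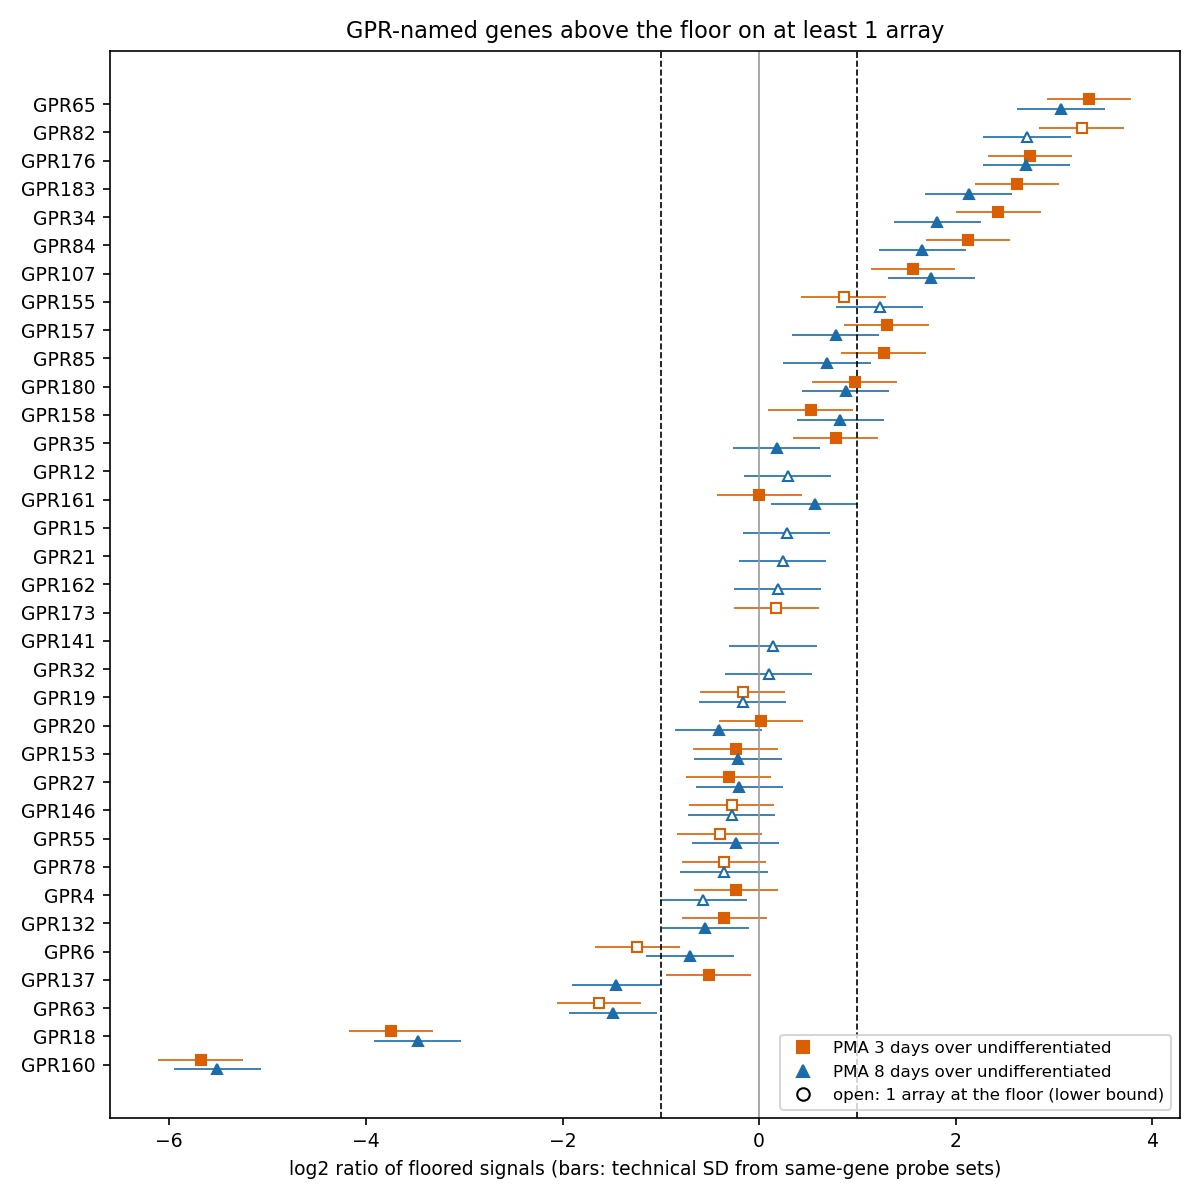
Log2 ratios of PMA 3 days (squares) and PMA 8 days (triangles) over the same undifferentiated array for the 35 GPR-named genes above the floor on at least 1 array. Bars are the technical SD (0.43 and 0.44), open symbols have 1 array at the floor and dashed lines mark 2-fold; GPR160 and GPR18 stand apart on the lower side, and GPR65, GPR82, GPR176 and GPR183 have the highest ratios in both comparisons.

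The group listed as proteins that act inside the cell or are not classical receptors had 6 genes, 5 of which could be compared. GPR107, a protein of the Golgi and its transport routes, had signals of 593, 1755 and 1997 by its brightest probe set, 2.96-fold and 3.37-fold higher. The 3 other GPR107 probe sets went the same way. The second-brightest, above the floor on all 3 arrays, had smaller log2 ratios of 0.71 and 0.34. The others rose from below the floor, so their size is not known. Their log2 ratios were at least 0.87 and 0.85 at PMA 3 days and at least 1.04 and 0.35 at PMA 8 days. GPR157, whose place in this group was a choice of the list and was not tested, had 528, 1298 and 907. It was 2.46-fold higher at PMA 3 days and 1.72-fold above undifferentiated at PMA 8 days. GPR155, a cholesterol sensor of the lysosome, went from below the floor (132) to 272 and 350.7, at least 1.81-fold and at least 2.34-fold; its second probe set gave 1.11-fold and 1.36-fold. The PMA 8 days call of GPR155 was lost in 4 of 8 alternative settings. GPR137, a lysosomal membrane protein, had 604, 423 and 220, 2.74-fold lower at PMA 8 days, where its second probe set gave a log2 ratio of -0.58. GPR180 had 433, 848 and 797 by its brightest probe set, a log2 ratio of 0.97 that is just under 2-fold, while 2 other probe sets went down (log2 ratios -0.27 and -0.85 at PMA 3 days). No direction is given for GPR180.

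**Figure D3:**
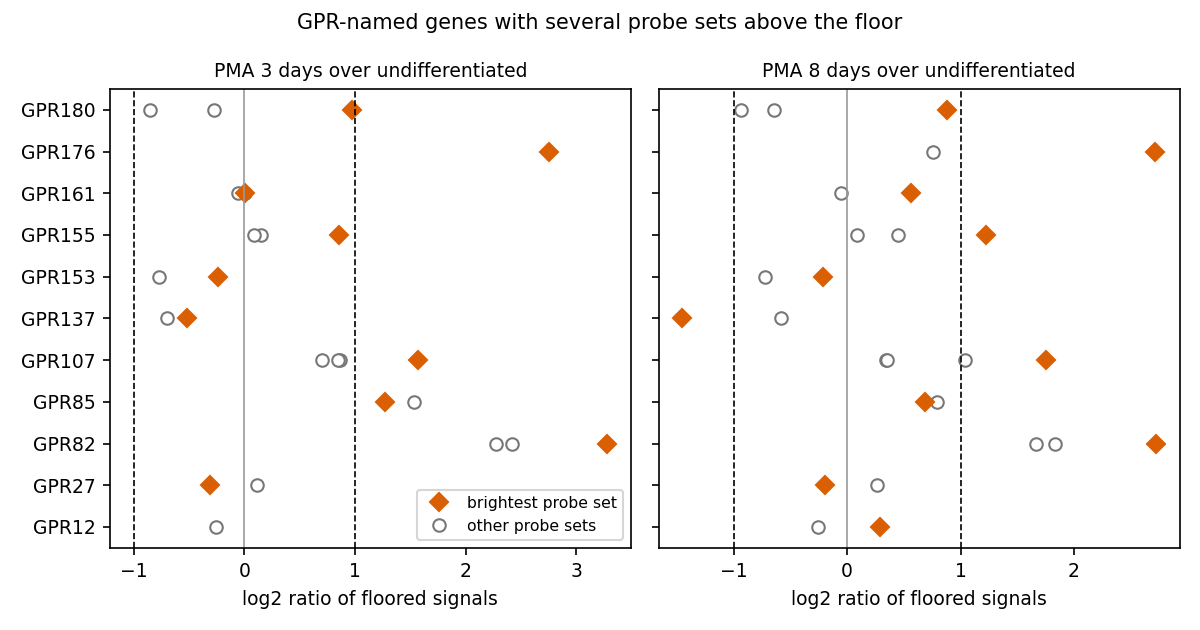
Log2 ratio of each probe set above the floor, for the 11 GPR-named genes with several such probe sets, at PMA 3 days (left) and PMA 8 days (right) over undifferentiated; diamonds mark the brightest probe set and dashed lines 2-fold. The probe sets of GPR82 and GPR85 lie on 1 side of 0, and those of GPR180 on both sides. Ratios with 1 array at the floor are drawn as lower bounds without a separate symbol.

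Agreement between probe sets could be looked at in 9 genes at PMA 3 days and 11 at PMA 8 days. Probe sets of a gene lay at least 2-fold apart in 2 and 5 of them, and on both sides of 0 in 3 and 4. GPR12, GPR27 and GPR161, each with differences under 2-fold, and GPR180 account for the latter. Lower bounds were included in these counts. All ratios of GPR82, and the lowest of GPR155 and GPR176 at PMA 8 days, had 1 array at the floor, so their distances depend on the floor. Ratios measured on both sides were that far apart at PMA 8 days in GPR107 (log2 ratios 1.75 and 0.34) and GPR180 (0.88 and -0.64). Of the 15 genes called higher or lower, 8 had a second probe set or more, but in GPR6 and GPR157 none of these was above the floor. GPR18, GPR34, GPR63, GPR65, GPR84, GPR160 and GPR183 were each read by 1 probe set alone, so that no second reading of their size exists here.

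Between the PMA cultures, none of the 32 GPR-named genes compared differed by 2-fold, beside 1.37% higher and 0.934% lower (2.3% either way) among all 13066 genes. For 11 of the 32, 1 array was at the floor, so their ratios are lower bounds. A gene with no signal above 2 times the floor could not reach 2-fold here. The count thus does not show that these genes were unchanged. Log2 ratios of PMA 8 days over PMA 3 days ran from -0.94 (GPR137) to 0.56 (GPR161), and the median was 0.06, beside 0.04 for all genes. The second probe set of GPR137 gave 0.12, that of GPR176 at least 0.76, and the 4 of GPR107 between -0.50 and 0.19. Of the 9 genes higher at PMA 3 days, 8 had a lower signal at PMA 8 days than at PMA 3 days, with log2 ratios down to -0.62 for GPR34; GPR107 was the other one, at 0.19. The 4 genes lower at PMA 3 days had log2 ratios of 0.17 (GPR160), 0.27 (GPR18), at least 0.14 (GPR63) and at least 0.54 (GPR6). The PMA 3 days array chose these genes and is also in this ratio, so the signs are a description only. Scaled to poly-A controls, 6 of the 9 were below 0 and GPR65 and GPR176 were above it along with GPR107.

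**Figure D4:**
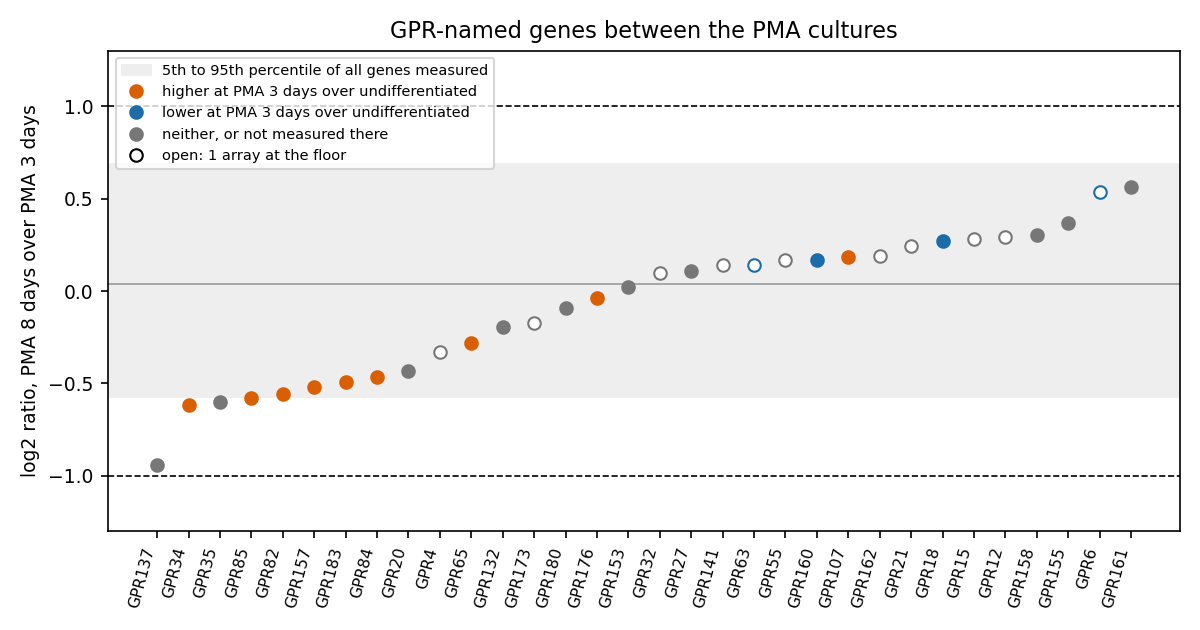
Log2 ratio of PMA 8 days over PMA 3 days for the 32 GPR-named genes compared, in order; colours give the call at PMA 3 days over undifferentiated, open symbols have 1 array at the floor, the grey band holds the 5th to 95th percentile of all genes (-0.57 to 0.69) and dashed lines mark 2-fold. No gene reaches 2-fold, and GPR137, GPR34, GPR35 and GPR85 lie below the band.

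Signalling partners were listed as well, chosen from general knowledge. Their counts stand beside 21.0% of all genes higher or lower at PMA 3 days and 18.1% at PMA 8 days; counts such as 3 or 4 genes of 13 are near those shares or too small to set apart from them, and nothing is read from them about a list. Of 13 G protein alpha subunit genes, all compared, 3 were higher and 1 lower at PMA 3 days and 2 and 1 at PMA 8 days (median log2 ratios 0.11 and 0.42). GNA12 and GNA13, which form a subfamily of their own, had signals of 2776, 6230 and 6874 (2.24-fold and 2.48-fold higher) and of 14588, 33890 and 25681 (2.32-fold and 1.76-fold). GNAL went from 26.6 to 435 and 385, at least 2.90-fold and at least 2.57-fold, and GNA14, of the group that activates phospholipase C, from 568 to 250 and 153 (2.27-fold and 3.72-fold lower). GNAS, the subunit that stimulates adenylyl cyclase and through which GPR65 signals, had 34396, 36997 and 40167. The inhibitory GNAI2 had 1512, 1341 and 1550, so that neither of these moved by 2-fold.

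Of 13 beta and gamma subunit genes compared of 15, 2 were higher at both times and 1 (PMA 3 days) or 2 (PMA 8 days) lower. GNG11 went from 146, below the floor, to 3267 and 4160, at least 21.8-fold and at least 27.8-fold higher. GNG12 was 2.78-fold and 4.04-fold higher. GNB5, which pairs with RGS proteins, was 3.67-fold and 2.54-fold lower, and GNG4 was 2.05-fold lower at PMA 8 days. Among receptor kinases and arrestins 5 genes could be compared, and GRK6 was lower at both times (2.25-fold and 2.06-fold) while ARRB1 had signals of 2636, 3444 and 4295, under 2-fold. Of 8 adenylyl cyclase genes compared, ADCY9 was 2.17-fold lower at PMA 3 days; at PMA 8 days ADCY6 (2.53-fold) and ADCY8 (at least 2.24-fold) were higher and ADCY1 2.07-fold lower. ADCY8 was also 2.12-fold higher at PMA 8 days than at PMA 3 days, near the floor at PMA 3 days (158). Apart from it, no gene of these lists differed by 2-fold between the PMA cultures.

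The enzymes around the GPR183 ligand could be followed in 3 genes. CH25H, which hydroxylates cholesterol in the first step towards it, went from 40.1, below the floor, to 383 and 264, at least 2.55-fold and at least 1.76-fold. CYP7B1, which adds the second hydroxyl group, had 1141, 1231 and 1233 and did not reach 2-fold. CYP27A1, a mitochondrial sterol hydroxylase, had 695, 1698 and 1434, 2.44-fold and 2.06-fold higher.

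Receptors that once had a GPR name and were renamed once their ligand was known gave 28 genes, of which 13 and 15 could be compared. Counts were 3 higher and 2 lower at both times, with medians of -0.20 and 0.02. Among all genes compared, 10.3% were higher and 10.7% lower at PMA 3 days, and 9.72% and 8.39% at PMA 8 days. With so few genes the counts are a description only. ACKR3, a scavenging chemokine receptor, had 328, 2110 and 1281 (6.44-fold and 3.91-fold higher). C5AR2, the second receptor of complement C5a, went from 35.0 to 792 and 980, at least 5.29-fold and at least 6.54-fold, and the neuropeptide FF receptor NPFFR2 from 43.0 to 340 and 444, at least 2.27-fold and at least 2.96-fold. LPAR4, a receptor for lysophosphatidic acid, was the main loss, from 3049 to 301 and 528 (10.1-fold and 5.78-fold lower). GPER1, an oestrogen-responsive receptor, went from 316 to 155 and 36.5, near or below the floor, 2.04-fold and at least 2.11-fold lower. As with the GPR-named genes, 0 of the 14 compared between the PMA cultures differed by 2-fold, beside 2.3% of all genes compared.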

How the data were processed

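Total RNA was labelled with biotin from 200 ng per array, per the labels' protocols. Per the submitters' processing notes, MAS5 gave the deposited intensity values; its version and settings are not given in the sources used here. Of 54675 probe sets 62 controls were left out; 41091 name 1 gene, 1801 name several and 11721 name no gene. A gene was read by its brightest probe set (mean log2 of floored signals). The floor was 149.8, the 50th percentile of the non-control values. A gene entered a comparison if above the floor on 1 of its arrays. With 1 array a group no p-value was computed; the number of arrays limits the precision. The steps were run on simulated data, with large changes planted only in genes far above the floor and technical noise alone. That run does not cover smaller changes, genes near the floor or differences between cultures. The members and gene lists were chosen with earlier results of these data known. Named were members past 2-fold, the 10 with the highest mean signal, acid, lipid and metabolite receptors above the floor, members whose probe sets disagreed by 2-fold in direction, and past-2-fold genes of the lists; others are named to complete a group. Marker lists covered monocyte, lymphoid, erythroid, epithelial, stromal and endothelial genes. Alternatives were other floors, a pseudocount of 100, quantile normalization, poly-A control scaling (12 probe sets), centring, other probe sets and a 3-fold threshold. Promoters came from RefSeq, GRCh38.p14, with a window for 45 of the 55 genes. Python 3.11.15, numpy 2.4.6, pandas 2.3.3 and matplotlib 3.10.9 were used.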

Additional observations from a re-analysis of the deposited data

How the results depend on the processing

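Counts of GPR-named genes higher and lower kept within 1.5 times under quantile normalization, poly-A scaling, centring and the 40th percentile floor. With a floor at the 60th percentile, 2 genes were lower at PMA 3 days over undifferentiated, 9.09% of those compared, beside 10.0% of all genes. The median log2 ratio there was 0.53, and 16 (undifferentiated) and 18 (PMA 8 days) of the 55 were above the floor. Fewer genes entered. The median was 0.53 also with the median of the probe sets of a gene. By second-brightest probe sets, which only 10 and 11 compared genes have, 2 were higher and 0 lower at PMA 3 days, and 1 and 0 at PMA 8 days. Among all genes so read, 9.73% were higher and 9.99% lower at PMA 3 days, and 9.20% and 8.60% at PMA 8 days. At 3-fold, 2 were lower at PMA 8 days, 5.88% of those compared, beside 3.00% of all genes. With signal plus 100 and no floor, 2 were higher at PMA 8 days over PMA 3 days, 6.25% of those compared, beside 1.81% of all genes. They were GPR32 and GPR162, both named after their values were seen and below the floor at PMA 3 days. Of the values of single named genes under the alternatives, 404 moved by less than the technical SD, and 67 by more. Many of the 404 could not have moved further. Centring takes 1 small constant from all genes, which fixed its 68 values in advance. A gene with 1 probe set is unchanged by the median of its probe sets, and one above the floor by a lower floor. The 404 are thus no measure of robustness. No gene called higher or lower against undifferentiated cells changed sign in that comparison. Between the PMA arrays, where none was called, GPR65 went from -0.28 to 0.03 and GPR176 from -0.04 to 0.28 under poly-A scaling, and GPR137 from -0.94 to 0.12 by its second probe set. No paired analysis was possible because each group has 1 array. The floor counts under alternatives were added after seeing the data.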
